A study of Caenorhabditis elegans with 4 samples.

Results

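The 228 peaks on chromosome IV are the regions of that chromosome where the tagged nuclear hormone receptor NHR-11 was called bound by chromatin immunoprecipitation and sequencing (ChIP-seq) in late embryos of Caenorhabditis elegans. They were taken by chromosome name alone from the 2836 peaks of a list that covers the series as a whole (the series-wide list), and they made up 8.04% of it. A separate list for ChIP replicate 1 had 11 peaks on IV among 328, and one for ChIP replicate 2 had 14 among 258. An IV peak was counted as held by a replicate list when it overlapped a peak of that list by at least 1 bp.

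All 4 samples (2 ChIP and 2 input, numbered as replicates 1 and 2) came from hermaphrodites of strain OP305 grown at 20 °C and fixed with 2% formaldehyde. They carry the unc119(ed3) mutation together with the transgene wgIs305, which joins TY1, EGFP and FLAG tags to nhr-11 beside an unc119 copy, so ChIP and input share the mutation and the transgene. The transgene was introduced by bombardment, the strain was outcrossed 3 times, and the labels name neither the place nor the copy number of the insertion. ChIP used anti-GFP antibodies, and input was lysate taken before that step. No untagged strain was among the samples. The labels do not name separate cultures, so differences between replicates may be technical.

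Nuclear hormone receptors are transcription factors with a zinc-finger domain that binds DNA and a domain that in many members binds a small lipophilic ligand. C. elegans has an unusually large family of them, and most have no known ligand. Chromosome IV is known for 2 broad domains rich in genes of piRNAs, the small RNAs that the Argonaute protein PRG-1 uses to recognise foreign transcripts in the germ line. The domains were taken as 4.5 to 7.0 Mb (the left domain) and 13.5 to 17.2 Mb (the right domain). The gene nhr-11 (CELE_ZC410.1) is itself listed on IV in a gene table of another assembly, WBcel235. Its place was not compared with the peaks, which are given as 1-based positions of build WS220.

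Chromosome IV had few called peaks over nearly its whole length, not only in the piRNA-rich domains. It had 13.0 peaks per Mb (95% exact Poisson interval 11.4 to 14.8), and the other 5 chromosomes had between 25.5 and 35.6 peaks per Mb each. The number of IV peaks was 0.460 times that expected from its 17.5% of the genome span (95% Wilson interval 0.406 to 0.521). The interval takes peaks as independent, which neighbouring peaks are not. No p is given, since IV was singled out with its low count known. The series-wide peaks are numbered up to 2869, and 33 of those numbers were absent from the list analysed here. With all 33 placed on IV, its ratio would be 0.521.

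Bins of 1 Mb show where the sparse stretches lie. Over the first 6 bins from the left end, IV had 28, 9, 19, 8, 10 and 15 peaks. The next 6 bins, from 6 to 12 Mb, had 11, 12, 13, 10, 9 and 17. From 12 to 17 Mb the counts were 11, 11, 11, 9 and 5, and the last partial bin of 0.493 Mb had 20, or 40.6 per Mb. The first and the last bin were thus the densest, and the third densest was the bin from 2 to 3 Mb. The 3 sparsest were 16 to 17 Mb with 5 peaks, 3 to 4 Mb with 8, and a tie at 9 of the bins from 1 to 2, 10 to 11 and 15 to 16 Mb. The bin from 9 to 10 Mb held 10 peaks, of which 7 belonged to a broad block at 9.04 to 9.08 Mb, and it held 3 without that block.

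Sparse bins, with under 10 peaks per Mb, made up 5 of the 18 bins on IV, against 5.83% of all 103 bins of the genome (6 bins). The remaining sparse bin was a short partial bin at the end of another chromosome. Among full bins the median was 11 peaks on IV (lowest 5, highest 28) and 30 on the other chromosomes (lowest 11, highest 47). Only 1 of the 80 full bins elsewhere held 11 peaks or fewer, against 11 of the 17 full bins of IV. Without the broad block, 6 bins of IV were sparse.

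The low density was shared by the interior of IV, and its ends stood closer to those of other chromosomes. The outer 5% at each end of IV, a cut chosen after the values were seen, held 26 peaks on the left and 22 on the right. Together that was 27.4 peaks per Mb (20.2 to 36.4), against 46.2 per Mb over the ends of the other chromosomes, a ratio of 0.594 (95% exact interval 0.430 to 0.803). In the interior IV had 11.4 per Mb (9.82 to 13.2) and the other chromosomes 29.9, a ratio of 0.382 (0.327 to 0.445). The left end by itself had a ratio of 0.740, with an interval (0.470 to 1.12) that includes 1, and the right end one of 0.481 (0.296 to 0.748). Ends were denser than interiors on IV by a factor of 2.40 (1.71 to 3.32) and on the other chromosomes by 1.54 (1.38 to 1.72). Whether those 2 factors differ was not tested.

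**Figure D1:**
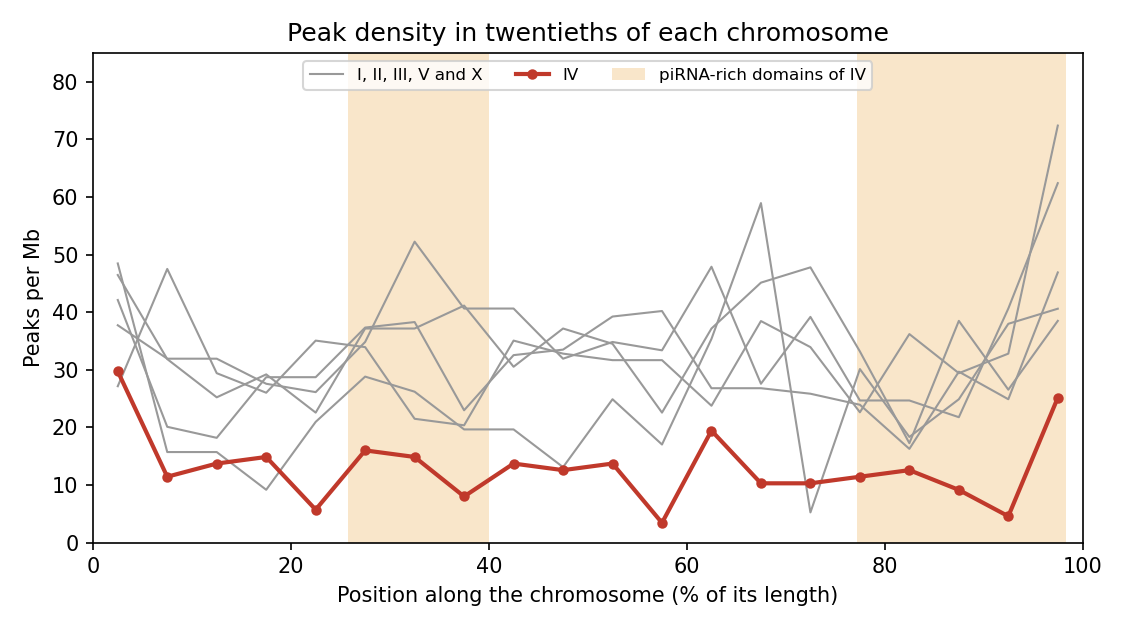
Peaks per Mb of the series-wide list (vertical axis) in 20 equal parts of each chromosome's length (horizontal axis, in percent), with IV in red, the other 5 chromosomes in grey and the piRNA-rich domains of IV shaded. IV was the lowest of the 6 chromosomes in 17 of the 20 parts and rose at both ends.

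The left and right piRNA-rich domains each held 33 peaks. In the left domain, 2.5 Mb long, that was 13.2 peaks per Mb (9.09 to 18.5). In the right domain, 3.7 Mb long, it was 8.92 per Mb (6.14 to 12.5). The rest of IV had 162 peaks, or 14.3 per Mb (12.2 to 16.7). The left domain was close to the rest of IV, with a density ratio of 0.920 whose interval spans 1 (0.613 to 1.34). The right domain had a ratio of 0.622 (0.414 to 0.908), or 0.650 without the block (0.432 to 0.951). Against the interior of IV outside the domains, its interior part had a ratio of 0.764 (0.487 to 1.16), or 0.812 without the block (0.516 to 1.24), with intervals that span 1. The ratio between the right and the left domain was 0.676, and its interval also spans 1 (0.404 to 1.13). These intervals cover counting error only and have no p, since the domains were proposed with results of these data known.

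Both domains together held 66 of the 228 IV peaks (28.9%, 95% Wilson interval 23.4 to 35.1) on 35.4% of the chromosome's length. Their density was 0.742 times that of the rest of IV (0.549 to 0.994). The broad block and the left end lie outside the domains, as do 17 of the 22 peaks of the right end, and the ratio moved when block or ends were left out. Without the block the ratio was 0.776 (0.572 to 1.04), and its interval then spans 1. In the interior of IV the domains had 10.9 peaks per Mb and the remainder 11.8, a ratio of 0.924 (0.667 to 1.27). In the interior without the block the ratio was 0.982 (0.707 to 1.35). The stretch between the domains, from 7.0 to 13.5 Mb, had 12 peaks per Mb (9.49 to 15.0), or 10.9 per Mb without the block. Left of the left domain the density was 14.9 per Mb, and right of the right domain, over 0.293 Mb, it was 58.1 (17 peaks).

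Outside the domains IV was still less dense than the other chromosomes. Its density there was 0.455 times theirs (0.386 to 0.533), and 0.435 times without the block (0.368 to 0.512). The same ratio was 0.419 in the left domain (0.287 to 0.589) and 0.283 in the right domain (0.194 to 0.398). The density was thus below that of the other chromosomes both inside and outside the domains. All 4 intervals lie below 1, but they are no test, since IV was singled out with its low count known.

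**Figure D2:**
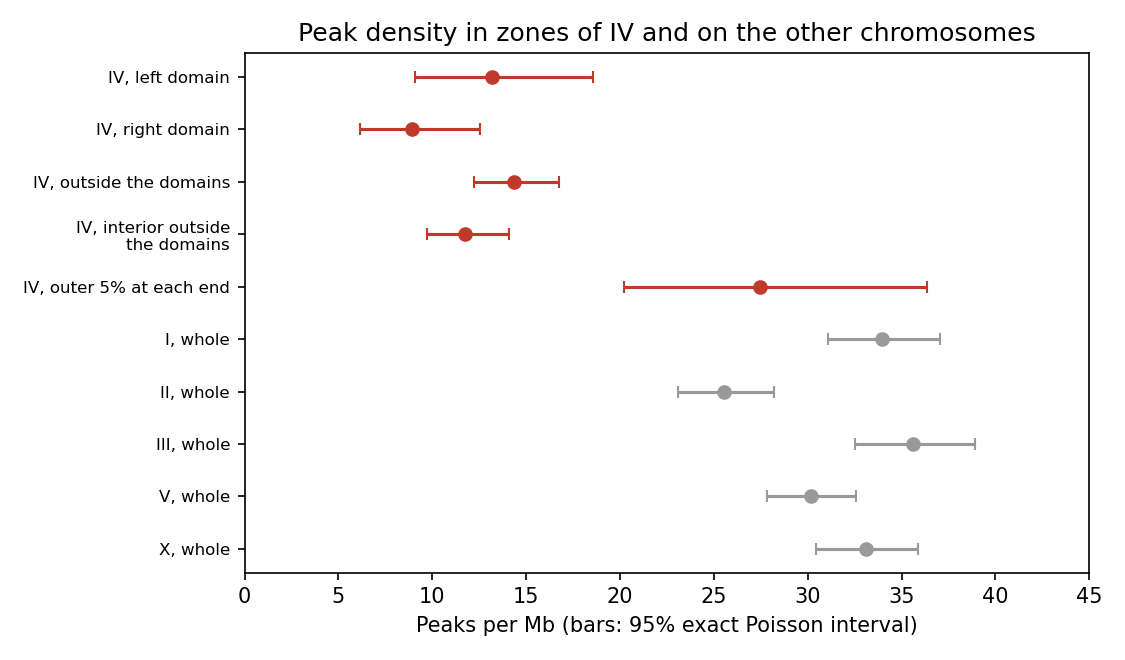
Peaks per Mb (horizontal axis) in zones of IV (red) and on each other chromosome as a whole (grey), with 95% exact Poisson intervals as bars. The domains, the rest of IV and its interior lie at 8.92 to 14.3 peaks per Mb, below every other chromosome, and the outer ends of IV at 27.4.

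Neighbouring IV peaks lay far apart. The median distance between midpoints of neighbours was 41.5 kb (interquartile range 13.5 to 114), and 45.2 kb without the block. The medians of the other chromosomes lay between 18.4 and 19.3 kb. Divided by the even spacing that the number of peaks would give, the median was 0.541 on IV and 0.592 over the other chromosomes. Relative to the number of peaks, the spacing on IV was thus about as uneven as elsewhere, a difference that was not tested.

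Long empty stretches were common on IV. Distances above 200 kb numbered 22 of 227 on IV (9.69%), and 16 of 2603 on the other chromosomes (0.615%). These shares are not scaled to the lower density of IV, which by itself lengthens distances. The 22 stretches on IV summed to 6.51 Mb. The longest ran from 9394696 to 10281848, with 887 kb between the midpoints of its flanking peaks, and it lay between the domains, to the right of the broad block. The longest elsewhere was 571 kb, on chromosome II. The next 4 on IV ran from 5369734 to 5821854 (452 kb, in the left domain), from 10357922 to 10734707 (377 kb), from 15875908 to 16237258 (362 kb) and from 14125756 to 14464147 (339 kb). The last 2 of these were in the right domain. The longest empty stretches were therefore found both inside and outside the domains.

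Close neighbours were fewer on IV than elsewhere. A lower density by itself leaves fewer of them, and the counts below are not scaled to it. With peaks joined when the gap between them was at most 10000 bp, the 228 IV peaks formed 181 groups, and 67.1% of the peaks stood alone, against 44.9% on the other chromosomes. The group with the most members was the broad block with 7 peaks. The next were 6 peaks at IV:17463905-17492507, at the right end, 5 peaks at IV:14606483-14624627, in the right domain, and 4 peaks at IV:5298940-5315661, in the left domain.

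**Figure D3:**
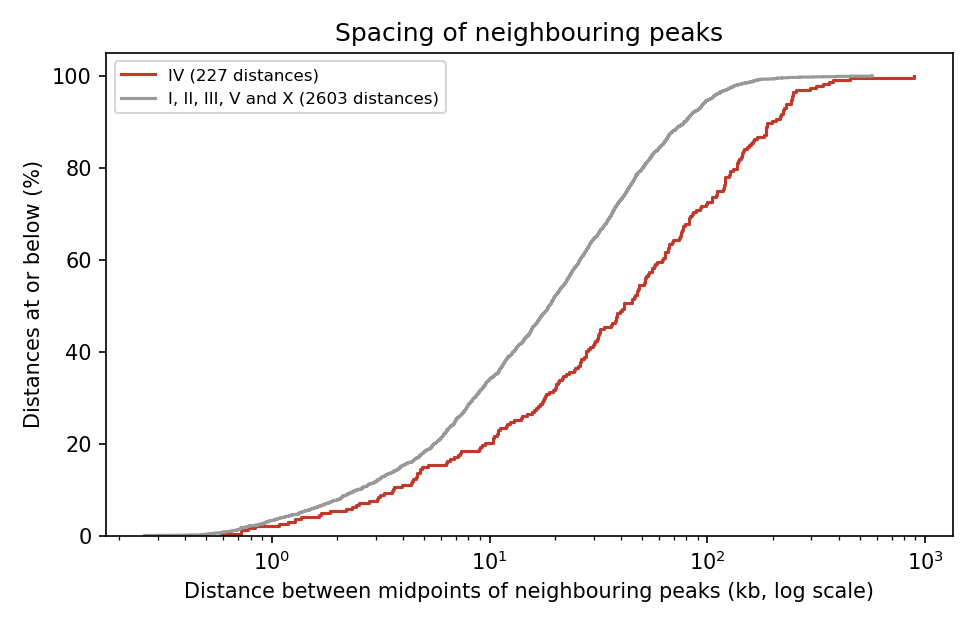
Cumulative percent of distances between midpoints of neighbouring peaks (vertical axis) by distance in kb on a log scale (horizontal axis), for IV (red, 227 distances) and the other 5 chromosomes (grey, 2603 distances). The IV curve lies to the right over most of its course, with a median of 41.5 kb against 18.8 kb.

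The single peaks of IV were ordinary in score, and their median width lay toward the upper end of the range of the other chromosomes. Their median width was 251.5 bp (interquartile range 172 to 394), and 250 bp without the block. The medians of the other chromosomes ran from 201 to 266 bp, and only that of II was above IV. Over the other chromosomes together the median was 217.5 bp, and the difference was not tested. Peaks wider than 1000 bp numbered 8 (3.51%), or 4 (1.81%) without the block, against 2.05% of all peaks in the list. Peaks under 50 bp numbered 21 (9.21%), and they made up 9.52% of the whole list. The strength of a peak is given by the authors' deposited significance value, which may be a p-value or a q-value and is called the score here (smaller is stronger). The median −log10 score was 3.72 on IV, 3.69 without the block, and between 3.66 and 3.80 on the other chromosomes. Scores below 1e-10 were listed for 11 IV peaks (4.82%), or for 7 (3.17%) without the block, against 3.49% of the list.

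The share of IV in the list changed little along the order of scores once the block was left out. IV supplied 8 of the first 50 peaks (16%, 8.34 to 28.5), of which 4 were of the block, and 4 of the next 50 (8%). It supplied 5.33% of peaks 101 to 250, 8.03% of peaks 251 to 500, 8.23% of peaks 501 to 1000, 7.38% of peaks 1001 to 2000 and 8.71% of those after. Without the block the share in the first 50 numbers was 8.70% (3.43 to 20.3), and over all classes it ran from 4.70% to 8.71%. The length of IV is 17.5% of the genome span, and the share lay below that in all 7 classes of peak number, with an interval that reaches it in the first 2.

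Replicate calls were scarcer on IV. Of its 228 peaks, 14 were held by either replicate list (6.14%, 95% Wilson interval 3.69 to 10.0), against 15.0% of the whole series-wide list (424 of 2836). On the other chromosomes the share ran from 12.3% to 17.4%. Both lists held 10 IV peaks (4.39%, 2.40 to 7.88), close to the 4.69% of the whole list. Replicate 1 alone held 1, replicate 2 alone held 3, and 214 were in neither list. Without the block, 9 of 221 IV peaks were in either list (4.07%, 2.16 to 7.56) and 5 in both (2.26%, 0.970 to 5.19). Of the 10 IV peaks in both lists, 5 were in the block.

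The scarcity was found among peaks of middle strength. Among the first 100 peaks of the series-wide list, 11 of the 12 on IV were in a replicate list (91.7%, 64.6 to 98.5), and 85 of the 88 elsewhere (96.6%, 90.5 to 98.8). Among peaks 101 to 500, only 1 of the 28 on IV was in a replicate list (3.57%, 0.633 to 17.7), against 215 of 371 elsewhere (58.0%, 52.9 to 62.9). Each other chromosome had a share between 48.3% and 65.8% in that class. The contrast held in its stronger portion, peaks 101 to 250, where 0 of 8 IV peaks (Wilson upper bound 32.4%) and 123 of 142 others (86.6%, 80.0 to 91.3) had a replicate call. Median widths in the class of 101 to 500 were 409.5 bp on IV and 353 bp elsewhere. Peaks 501 to 1000 had a replicate call in 0 of 41 cases on IV (upper bound 8.57%) and in 67 of 457 elsewhere (14.7%, 11.7 to 18.2). The single chromosomes ran from 4.17% to 24.5% there, so IV was not distinct from the lowest of them in that class. Beyond number 1000 the shares were 1.36% on IV and 2.54% elsewhere, both low. The comparison by peak number was chosen after the values were seen and has no p, and what causes the contrast was not tested. No source at hand says which reads went into the series-wide list, and if they were those of the replicates, the lists are not independent.

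**Figure D4:**
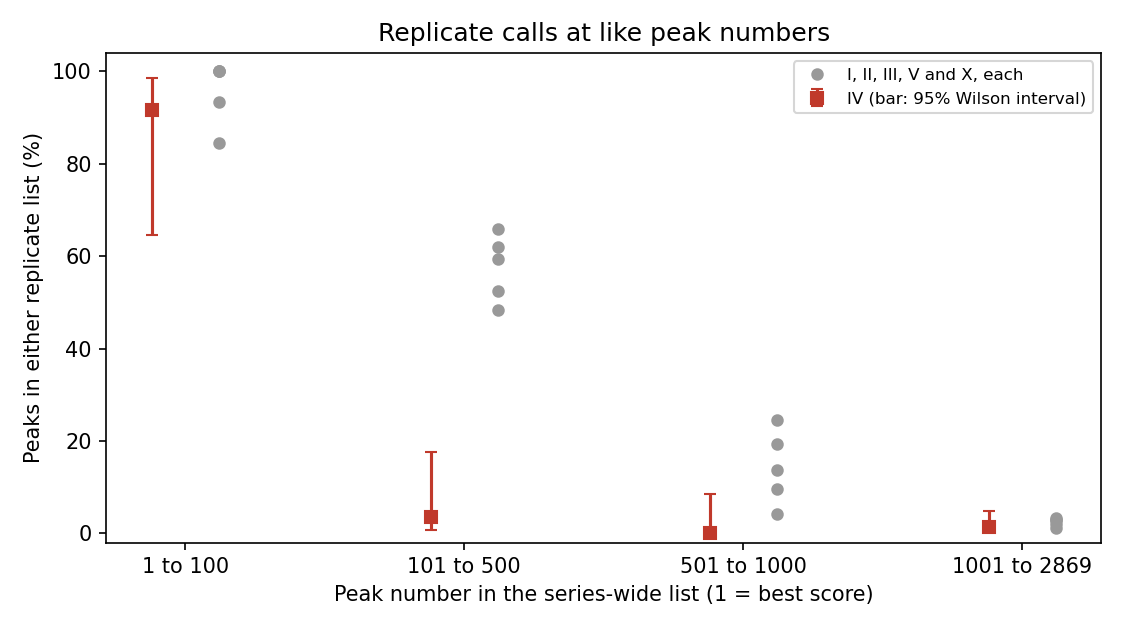
Percent of series-wide peaks that overlap a peak of either replicate list (vertical axis) in 4 classes of peak number (horizontal axis), for IV (red squares, 95% Wilson intervals) and for each other chromosome (grey points). IV stands with the others among the first 100 peaks and apart from them at 101 to 500, with 3.57% against 48.3% to 65.8%.

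The place of IV in each replicate list was counted as well. In replicate 1, IV had 7 of the first 50 peaks (14%, 6.95 to 26.2) and 4 of the remaining 278 (1.44%, 0.561 to 3.64). In replicate 2 it had 6 of the first 50 (12%, 5.62 to 23.8) and 8 of the remaining 208 (3.85%, 1.96 to 7.40). Without the block IV had 3 of 46 (6.52%, 2.24 to 17.5) and 3 of 277 (1.08%, 0.369 to 3.14) in replicate 1, and 3 of 47 (6.38%, 2.19 to 17.2) and 6 of 206 (2.91%, 1.34 to 6.21) in replicate 2. The intervals of the first 50 and of the remainder overlap in replicate 2, and in replicate 1 once the block is left out. That depends on the cut. With the first 60 peaks set apart, replicate 2 had 15% (8.10 to 26.1) against 2.53% (1.08 to 5.77), without overlap. Replicate 1 without the block then had 7.14% (2.81 to 17.0) against 0.749% (0.206 to 2.69), also without overlap. In replicate 2 without the block the intervals overlap at either cut. These cuts, too, were chosen after the values were seen.

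Most IV peaks of each replicate list were also in the other, in part through the block. Of the 11 in replicate 1, 10 were in replicate 2 (90.9%, 62.3 to 98.4), where the share over all chromosomes was 42.7%. Of the 14 in replicate 2, 10 were in replicate 1 (71.4%, 45.4 to 88.3), where it was 53.5% over all. Without the block the shares were 5 of 6 (83.3%, 43.6 to 97.0) and 5 of 9 (55.6%, 26.7 to 81.1). Over all chromosomes without the block they were 41.8% and 52.6%, so the second share was close to that of the whole list. Sharing was not compared at like places in the lists. The series-wide list held all 11 IV peaks of replicate 1 and 13 of the 14 of replicate 2. The exception was IV:11070896-11071285 of replicate 2 (390 bp, score 1.04e-05, number 102). The nearest series-wide peak to it had its midpoint 2064 bp away.

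Outside the block, 5 regions were called in all 3 lists. The peak at IV:2829768-2830660 (893 bp) was number 15 of the series-wide list with a score of 7.20e-24. It was number 17 in replicate 1 (3.94e-16) and number 17 in replicate 2 (7.30e-20), and the starts and ends of the replicates differed by a sum of only 2 bp. A neighbour 846 bp to its left, IV:2828194-2828921 (728 bp, 5.69e-11), was called in replicate 1 (5.59e-09, number 39) and in replicate 2 (6.82e-09, number 49) with the same end and starts 248 bp apart. These were the only calls of replicate 1 on IV to the left of the block.

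The peak at IV:13360982-13362116 (1135 bp) had a score of 3.85e-15 in the series-wide list, 3.21e-13 in replicate 1 and 4.63e-14 in replicate 2. It lies just left of the right domain. The peak at IV:17278330-17278776 (447 bp), right of that domain, had scores of 5.91e-22, 7.69e-07 and 7.49e-08 in the same order. The narrowest of the IV peaks held by both replicates, it was number 21 of the series-wide list and number 58 and 57 of the replicate lists.

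The remaining region, IV:14032922-14034498 (1577 bp, score 6.13e-21, number 22), was the widest IV peak outside the block and the only one in a piRNA-rich domain that both replicates held. Replicate 1 placed it far down its list, and the 2 replicates gave it different extents. Replicate 1 had 692 bp of it (6.94e-04, number 277 of 328) and replicate 2 had 1431 bp (2.35e-05, number 113 of 258). Starts and ends differed by a sum of 983 bp, against 2 to 248 bp for the other 4 regions.

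A single replicate list held 4 more. Replicate 1 held IV:11025647-11026621 (975 bp, series-wide score 5.89e-14, replicate score 1.42e-04). Replicate 2 held IV:654594-655193 (1.01e-10, replicate score 8.43e-04), IV:2219581-2219791 (2.88e-06, replicate score 9.60e-04) and IV:13549246-13549658 (7.32e-05, replicate score 6.84e-04). The replicate 1 call was number 162 of 328, and those of replicate 2 were numbers 245, 253 and 234 of 258, near the weak end of that list. The last of them lies in the right domain, which therefore had 2 of its 33 peaks with a replicate call (6.06%, 1.68 to 19.6). The left domain had 0 of 33 (Wilson upper bound 10.4%). Outside the domains the share was 7.41% (12 of 162), or 4.52% without the block (7 of 155). These shares all lie below the left domain's upper bound, so the left domain is not distinct from them.

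Several strong IV peaks had no replicate call. The best-scored was IV:10821758-10822566 (809 bp, 3.05e-11, number 87), which was also the weakest of the 10 best-scored IV peaks. The best-scored peaks of the left domain, IV:5966705-5967709 (1005 bp, 1.45e-10, number 108) and IV:4749793-4750212 (420 bp, 3.58e-10, number 117), were called in neither replicate. These 2 were picked after their values were seen. In the class they belong to, peaks 101 to 250, most peaks of other chromosomes had a replicate call, as given above.

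**Figure D5:**
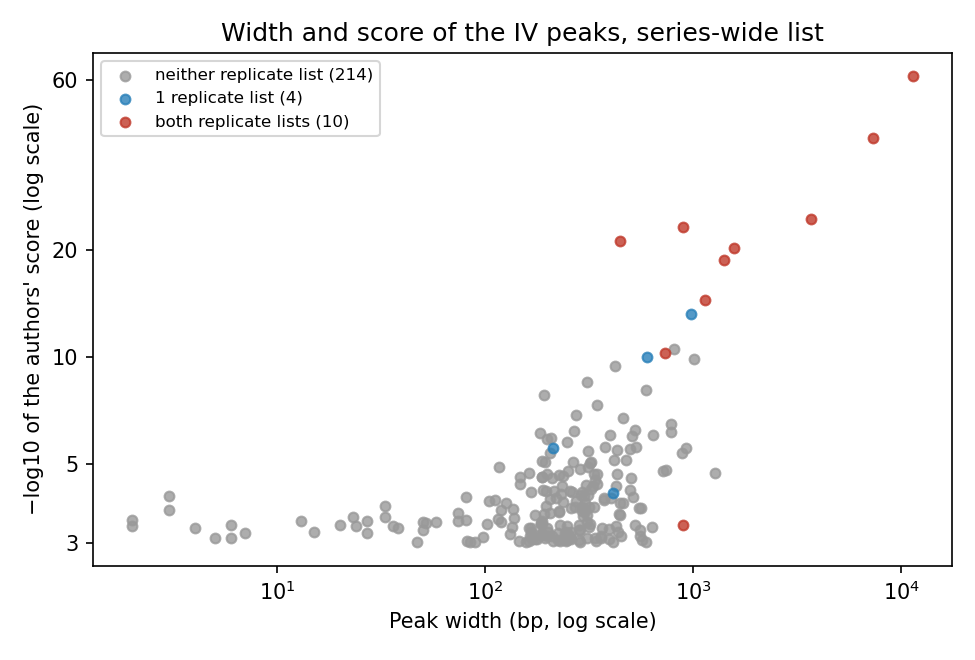
Width in bp (horizontal axis, log scale) and −log10 of the authors' score (vertical axis, log scale) of the 228 IV peaks of the series-wide list, coloured by how many replicate lists held them. Of the 10 peaks in both lists, 9 have −log10 scores of 10.2 or more, and the other is a peak of 898 bp at 3.37.

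The broad block held 3.07% of the IV peaks and 27.8% of the base pairs they cover. Of the 90744 bp covered on IV, 25203 lay in the block, and 65541 bp were left without it. In the replicate lists it held 83.5% of the covered base pairs of IV in replicate 1 and 80.5% in replicate 2. Outside it the IV peaks of replicate 1 covered 4884 bp and those of replicate 2 covered 5981 bp.

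Within the block, 5 of the 7 series-wide peaks were called in both replicates, with starts and ends that differed by a sum of 2 to 119 bp. Its 11469 bp peak, IV:9067496-9078964, was number 1 of the series-wide list, number 8 of replicate 1 and number 13 of replicate 2. The 7358 bp peak, IV:9049732-9057089, was number 5, 12 and 31 in the same order, and the 3699 bp peak, IV:9062420-9066118, was number 14, 40 and 55. The 1404 bp peak, IV:9048081-9049484, kept a similar place, at number 29, 23 and 24. These were 4 of the 5 widest peaks of IV, and the other one is the 1577 bp peak of the right domain. Whether the block reflects binding of NHR-11 was not tested. No untagged strain was sampled, and the place and copy number of the transgene are not named. The place of the gene nhr-11 was not compared with the block.

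The peak IV:9046969-9047866 (898 bp) stood apart in score. In the series-wide list, numbered up to 2869, it was weak (4.27e-04, number 1975). It was number 164 of 328 in replicate 1 (1.50e-04) and number 54 of 258 in replicate 2 (2.55e-08). Its limits agreed to within 2 bp between replicates. Scores of lists called separately are not on a known common scale, so only its place in each list is compared. The other 2 peaks of the block, 184 bp (8.21e-07) and 191 bp (1.48e-08) wide, lay at its left edge and were in neither replicate list.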

How the data were processed

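ChIP-seq peaks of C. elegans strain OP305 were analysed from 3 deposited lists. Per the file headers and columns, they were called with PeakSeq on WormBase WS220. The caller's version and settings, the aligner, the control and the origin of the series-wide list are not given in the sources used. Each peak has 1 deposited p-value or q-value (which of them is not stated), used only within its list. Read depth is unknown, and input entered only through the authors' calls.

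Python 3.11.15, NumPy 2.4.6, SciPy 1.17.1 and Matplotlib 3.10.9 were used. Peaks were placed by midpoint. A chromosome's length was the end of its last peak in any list. Densities carry 95% exact Poisson intervals, density ratios exact conditional (Clopper-Pearson) intervals and shares Wilson intervals, all for counting error only. A planned exact binomial test of the chromosome counts is not quoted, since IV was singled out with its count known. Scripts were tested on simulated data.

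The members, domains and tests were chosen with earlier results of these data known. Regions named are those called in a replicate list, the 10 best-scored, the 5 widest, the 5 longest empty stretches and the 3 sparsest and densest bins; others are marked. No WS220 genome or annotation was used, so genes near peaks and peak sequences are not analysed here.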

Additional observations from a re-analysis of the deposited data

How the results depend on the processing

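Of 52 alternative values, 38 were rated the same, 14 moved and 0 reversed, by rules that differed between results. Peak-count alternatives of the ratio of observed to expected peaks on IV were rated the same when they kept their direction. Of these, 0.192, 0.311 and 0.548 lay outside the 95% interval of the reported ratio (0.406 to 0.521). All other values were rated the same within the 95% interval of the reported value (within 1.5 times for counts) and moved beyond it. The ratio of observed to expected peaks on IV was 0.192 to 0.548 under the alternatives that count peaks (0.311 without replicate 1 and 0.192 without replicate 2, each from the other replicate's list). Counted in covered base pairs it was 0.625, and the block holds 27.8% of those base pairs. The share of IV peaks in the piRNA-rich domains, divided by their share of its length, was 0.817 (0.662 to 0.992). Its interval reached 1 without the block (0.843, to 1.02), in the best-scored 50% (0.932, to 1.19), without peaks under 50 bp (0.859, to 1.04), with peaks within 10000 bp counted once (0.826, to 1.02), with narrowed (0.822, to 1.06) or widened (0.866, to 1.03) domains and in the interior (0.950, to 1.15). The ratio was 0.403 for peaks in either replicate list and 0.256 to 0.403 in the lists of single replicates, all resting on 1 or 2 peaks in the domains. With peaks within 10000 bp counted once, the density outside the domains relative to other chromosomes was 0.548, the median distance 63924 bp and the number of sparse bins 9. The best-scored 50% gave a replicate share of 11.3%, a median width of 311 bp, a median distance of 70103 bp and 15 sparse bins. The last 2 changed because fewer peaks remain, and 11 bins of the other chromosomes were then sparse too. The replicate share over all chromosomes is not given for the best-scored 50%, so 11.3% cannot be set against the 15.0% of the whole list. Peaks in either replicate list had a median width of 936.5 bp and a median −log10 score of 16.6. At under 5 peaks per Mb, 0 bins of IV were sparse. The alternatives of chromosome interiors and of the absent peak numbers were chosen after seeing the data. No paired analysis was possible because neither input library came with peaks to set against its ChIP partner. Read depth is unknown, so how it limits the weak peaks cannot be given.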
